A study of Homo sapiens with 6 samples.

Results

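The genes described here are 10 core clock and clock output genes, PER1, PER2, PER3, CRY1, CRY2, NR1D1, NR1D2, DBP, TEF and CLOCK, chosen by symbol from the 28862 genes of a count table made from SH-SY5Y cells. All 10 were listed in the count and FPKM tables, and all 10 passed the filter on low counts that left 15829 genes to test. SH-SY5Y is a human neuroblastoma line with features of sympathetic neurons. The series asks what SMN1 overexpression does to the transcriptome of these cells, with neuropathic pain as its background. It holds 3 libraries labelled as overexpressing SMN1, called here the SMN1-labelled libraries, and 3 libraries from cells given a control plasmid. The labels give no vector, no time after transfection, no time of day at collection and no step that sets the clocks of the cells to 1 phase. They also do not say whether replicate libraries were grown as different cultures, so every p-value refers to variation among these libraries alone, which may be technical.

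The mammalian clock is a loop of transcription factors. CLOCK pairs with BMAL1 and binds E-box elements in the genes of the PER and CRY repressors, whose proteins return to the nucleus and block that pair. A second arm runs through the nuclear receptors NR1D1 and NR1D2 (REV-ERB alpha and beta), which repress BMAL1 and CLOCK, and the ROR receptors, which activate through the same element. DBP and TEF are output factors that activate genes through D-box elements, and NFIL3 represses through the same sites. Neuroblastoma and other cultured cells express these genes, and cells of a culture that share no phase give an average over the cycle.

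The 250 bases before the annotated start are shown for the 3 genes that passed the test, for NR1D2, whose windows held the most motif matches, and for PER1, the member with the most reads in every library. The sequences are from RefSeq on GRCh38.p14, in which all 10 genes were found with 15 windows between them. CLOCK and NR1D2 are shown at the second of their 2 annotated starts, and the window of the first start held no motif match in either gene. Capitals mark matches to the E-box (CACGTG), its variant (CACGTT), the D-box (TTATGTAA or TTACGTAA) and the REV-ERB/ROR element, read on both strands.
DBP, chr19:48637380-48637629, minus strand: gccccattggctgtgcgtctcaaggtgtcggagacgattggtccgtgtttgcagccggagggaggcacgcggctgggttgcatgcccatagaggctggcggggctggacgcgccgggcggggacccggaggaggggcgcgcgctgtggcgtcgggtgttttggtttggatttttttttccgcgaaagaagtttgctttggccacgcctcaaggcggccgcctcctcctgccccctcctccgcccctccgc
CLOCK, chr4:55545933-55546182, minus strand: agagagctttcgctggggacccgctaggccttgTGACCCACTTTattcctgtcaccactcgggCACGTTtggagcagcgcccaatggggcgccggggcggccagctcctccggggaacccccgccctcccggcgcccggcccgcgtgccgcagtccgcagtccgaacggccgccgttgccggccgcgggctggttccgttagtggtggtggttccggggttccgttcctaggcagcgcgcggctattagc
CRY1, chr12:107093550-107093799, minus strand: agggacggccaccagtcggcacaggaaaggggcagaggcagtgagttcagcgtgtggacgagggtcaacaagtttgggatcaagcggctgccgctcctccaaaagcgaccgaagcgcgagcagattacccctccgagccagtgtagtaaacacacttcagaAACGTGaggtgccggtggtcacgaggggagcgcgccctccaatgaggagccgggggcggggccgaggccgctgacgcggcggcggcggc
NR1D2, chr3:23945871-23946120, plus strand: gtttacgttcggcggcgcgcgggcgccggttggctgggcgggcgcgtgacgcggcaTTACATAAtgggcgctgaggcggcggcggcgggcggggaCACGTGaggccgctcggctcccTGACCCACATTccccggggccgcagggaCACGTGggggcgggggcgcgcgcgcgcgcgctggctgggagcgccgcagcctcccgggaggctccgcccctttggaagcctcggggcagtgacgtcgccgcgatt
PER1, chr17:8152405-8152654, minus strand: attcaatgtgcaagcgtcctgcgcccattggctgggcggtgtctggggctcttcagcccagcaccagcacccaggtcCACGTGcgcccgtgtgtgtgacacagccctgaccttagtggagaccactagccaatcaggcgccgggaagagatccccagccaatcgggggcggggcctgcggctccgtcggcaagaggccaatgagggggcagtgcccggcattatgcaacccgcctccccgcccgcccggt
An E-box lay in 4 of the 15 windows, from 3 of the 10 genes (PER1, NR1D2 and TEF), and 6.34% of all 35116 windows of that length held one. The CACGTT variant lay in 5 of the 15 windows, from 5 genes (PER2, CRY1, CRY2, NR1D1 and CLOCK), against 4.55% of all windows. The D-box was found in 2 of the 15 windows, from PER3 and NR1D2 (0.940% of all windows). The REV-ERB/ROR element was also in 2 of the 15, from NR1D2 and CLOCK (0.265% of all windows). The DBP window held none of these motifs, and the cyclic AMP response element TGACGTCA was in no member's window and in 1.65% of all windows. These are matches of letters in a short window and were not measured as binding sites.

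SMN1, the gene named in the label, was lower, not higher, in libraries labelled as overexpressing it. It had 14.8, 16.6 and 16.6 CPM there, against 20.0, 20.4 and 19.6 CPM in control libraries, where CPM is a read count scaled to the size of its library with TMM factors (a log2 fold change of -0.32 with an SE of 0.06, adjusted p = 9.40e-05 by edgeR's quasi-likelihood test). SMN2, the near-identical paralog with which reads can be shared, averaged 7.63 ± 0.427 CPM in the SMN1-labelled libraries and 9.40 ± 0.358 CPM in control libraries (SD, n = 3 each). Every direction below is therefore between libraries as labelled. Libraries held 30379242 to 40275498 reads. Of 12 adrenergic neuroblastoma markers 11 were at 1 FPKM or more in all 6 libraries, DBH among them, and TH, the first enzyme of catecholamine synthesis, was near 0 (0.0201 ± 0.0174 CPM in the SMN1-labelled and 0.169 ± 0.122 CPM in control libraries). Of the 11 that were tested 6 rose and 5 fell at an edgeR adjusted p of at most 0.05. Among all genes tested 28.0% were called higher and 28.2% lower. The log2 fold changes were 0.79 for CHGB, 0.38 for DBH, 0.22 for ISL1 and -0.39 for PHOX2A. The call of PHOX2A was lost after a correction for length and GC content (edgeR adjusted p = 0.833, its highest over the alternatives, with 6.11e-20 the lowest). Of 12 mesenchymal markers, all tested, 8 fell and none rose, beside the 28.2% called lower among all genes tested. VIM, COL1A1, COL3A1 and SNAI2 had log2 fold changes of -1.03, -1.56, -1.36 and -1.03. The summed FPKM of the 12 was 311 to 344 in the SMN1-labelled libraries and 383 to 405 in control libraries. Most of that sum was TWIST1, at 275 ± 16.5 FPKM in the SMN1-labelled and 322 ± 11.9 FPKM in control libraries, whose call as lower was lost after the same correction (edgeR adjusted p = 0.61). After that correction 8 of the 12 mesenchymal markers were called lower, but not all were the same genes as before it. The part of that difference in the clock gene values was not tested.

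Among the clock genes, CLOCK and CRY1 were higher and DBP was lower in the SMN1-labelled libraries, and the other 7 did not pass the test. That is 3 of 10 called at an edgeR adjusted p of at most 0.05, where 56.2% of all genes tested were called, 28.0% higher and 28.2% lower. The 2 groups were fully separate for 4 of the 10 genes, against 60.7% of all genes tested. The median log2 fold change of the 10 genes was -0.09, and that of all genes tested was 0.00087. Of the 7 genes not called, 6 had a 95% interval that left out a 1.5-fold change in either direction, and NR1D1 was the exception. The genes were of low to middle abundance, at the 25.1 to 59.8 percentile of mean CPM among genes tested and with 60 to 678 reads in a library. Fewer cells that express a gene and less RNA per cell cannot be told apart in these bulk libraries.

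**Figure D1:**
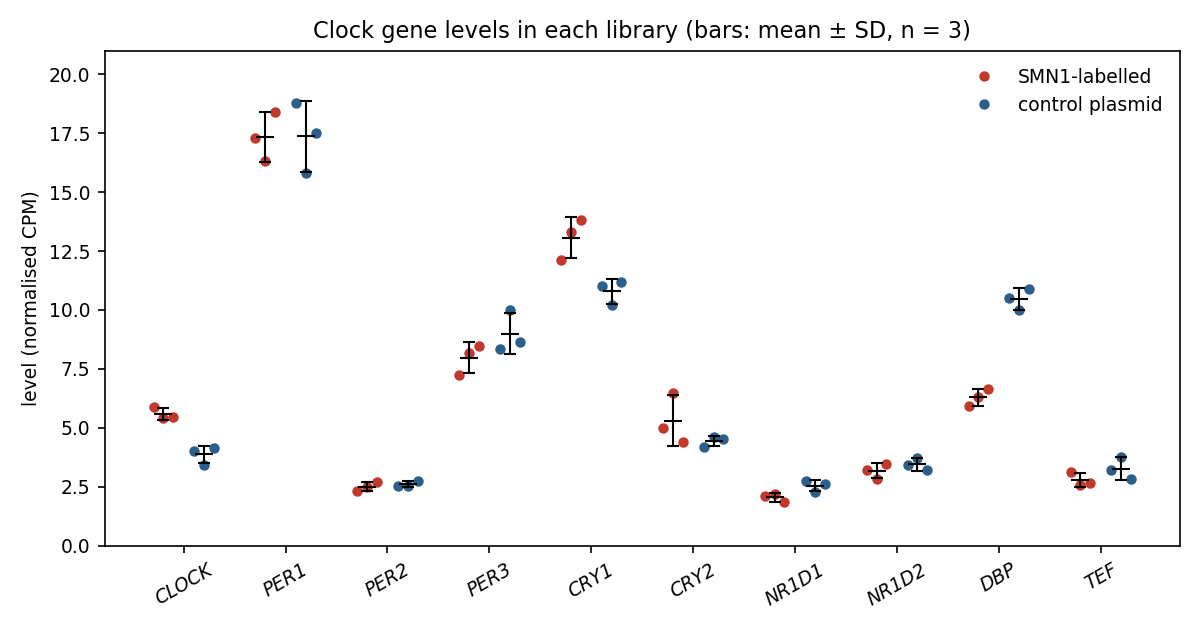
Level of each clock gene in normalised CPM (y axis) in the 3 SMN1-labelled libraries (red, left) and the 3 control plasmid libraries (blue, right), with bars for mean ± SD. CLOCK and CRY1 sit higher in every SMN1-labelled library, DBP and NR1D1 lower, and PER1 overlaps at 16.3 to 18.4 CPM against 15.8 to 18.8 CPM.

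CLOCK encodes the DNA-binding partner of BMAL1 on the activating side of the loop. It had 5.88, 5.43 and 5.45 CPM in the SMN1-labelled libraries, against 4.03, 3.44 and 4.14 CPM in control libraries. All 3 SMN1-labelled libraries lay above all 3 control libraries, and CLOCK rose 1.44-fold (log2 fold change 0.53, SE 0.11, edgeR adjusted p = 0.000224). Its partner did not pass the test: BMAL1, listed in the files as ARNTL, had 3.52, 4.42 and 4.38 CPM in the SMN1-labelled libraries, against 3.96, 3.60 and 4.10 CPM in control libraries, and the groups overlapped (log2 fold change 0.09, 95% interval -0.17 to 0.34, edgeR adjusted p = 0.573). NPAS2, which can stand in for CLOCK, averaged 1.21 ± 0.160 CPM in the SMN1-labelled libraries and 1.16 ± 0.274 CPM in control libraries (edgeR adjusted p = 0.803). BMAL2, a paralog of BMAL1, averaged 2.24 ± 0.354 CPM in the SMN1-labelled libraries and 1.63 ± 0.548 CPM in control libraries (log2 fold change 0.46, SE 0.20, edgeR adjusted p = 0.0578). The third control library had 1.0 CPM of BMAL2, against 1.96 and 1.93 CPM in the other two, and without it the log2 fold change was 0.21 (adjusted p = 0.361). BMAL2 was at 0.35 without the second SMN1-labelled library (adjusted p = 0.229), and it passed without control library 1 or 2 or the first SMN1-labelled library (0.57 to 0.61, adjusted p = 0.0259 to 0.0362), by limma-voom (0.0457) and with no count filter (0.0163), within 0.0163 to 0.412 over the alternatives.

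CRY1 and CRY2 encode the cryptochromes, the repressors that bind CLOCK and BMAL1 directly. CRY1 had 12.1, 13.3 and 13.8 CPM in the SMN1-labelled libraries, against 11, 10.2 and 11.2 CPM in control libraries. The groups did not overlap, and CRY1 rose 1.21-fold (log2 fold change 0.28, SE 0.07, edgeR adjusted p = 0.00246). CRY2 had 4.99, 6.49 and 4.41 CPM in the SMN1-labelled libraries, against 4.19, 4.59 and 4.52 CPM in control libraries. Its fitted change was of the same size but rested on the second SMN1-labelled library, with the third inside the control range (log2 fold change 0.27, SE 0.13, edgeR adjusted p = 0.0696). Without that second library the CRY2 log2 fold change was 0.09 (adjusted p = 0.592), and without the third it was 0.39 and passed (adjusted p = 0.0105), which are the extremes over its alternatives.

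The PER genes encode the partners of the cryptochromes in the repressor complex, and none of the 3 passed the test. PER1, the period gene that external stimuli induce most directly, had 17.3, 16.3 and 18.4 CPM in the SMN1-labelled libraries, against 18.8, 15.8 and 17.5 CPM in control libraries. The groups overlapped fully, and the 95% interval of the difference was narrow, from -0.15 to 0.13 on the log2 scale (edgeR adjusted p = 0.929). The fitted sign of PER1 was not stable over the alternatives. PER2 had 2.30, 2.50 and 2.71 CPM in the SMN1-labelled libraries, against 2.53, 2.52 and 2.76 CPM in control libraries (95% interval -0.35 to 0.23, edgeR adjusted p = 0.754). PER3 had 7.23, 8.17 and 8.49 CPM in the SMN1-labelled libraries, against 8.36, 9.99 and 8.62 CPM in control libraries. The third SMN1-labelled library lay within the control range and the other 2 below it (log2 fold change -0.17, 95% interval -0.36 to 0.01, edgeR adjusted p = 0.103).

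NR1D1 and NR1D2 encode the REV-ERB receptors, heme-binding repressors whose targets include BMAL1. NR1D1 had 2.12, 2.19 and 1.83 CPM in the SMN1-labelled libraries, against 2.73, 2.29 and 2.62 CPM in control libraries. All 3 SMN1-labelled values were below the 3 control values, but at 60 to 91 reads a library the difference did not pass (log2 fold change -0.31, 95% interval -0.62 to 0.0017, edgeR adjusted p = 0.0842). NR1D2 had 3.22, 2.84 and 3.47 CPM in the SMN1-labelled libraries, against 3.40, 3.73 and 3.21 CPM in control libraries, with overlap (log2 fold change -0.13, edgeR adjusted p = 0.42). RORA and RORB, receptors that act against the REV-ERBs at the same element, did not pass: RORA averaged 0.765 ± 0.172 CPM in the SMN1-labelled and 0.738 ± 0.122 CPM in control libraries, and RORB 1.97 ± 0.220 CPM in the SMN1-labelled and 2.30 ± 0.314 CPM in control libraries. RORB passed as lower after a correction for length and GC content (log2 fold change -0.49, against -0.23 without it, edgeR adjusted p = 0.0155, the lowest of its alternatives, with 0.641 the highest).

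DBP, the D-box activator whose transcription follows CLOCK and BMAL1 closely in rodent liver and brain, showed the largest fitted change of the 10 genes. It had 198, 262 and 219 reads in the SMN1-labelled libraries, against 316, 305 and 317 reads in control libraries, or 5.91, 6.30 and 6.66 CPM against 10.5, 9.99 and 10.9 CPM. The highest SMN1-labelled library lay well under the lowest control library, and DBP fell 1.66-fold (log2 fold change -0.74, SE 0.08, edgeR adjusted p = 7.60e-08). DBP was called lower under all 17 alternative settings (adjusted p from 3.54e-14 to 0.00177). TEF, of the same PAR bZIP family, had 3.14, 2.55 and 2.65 CPM in the SMN1-labelled libraries, against 3.20, 3.77 and 2.83 CPM in control libraries, with overlap (log2 fold change -0.24, 95% interval -0.53 to 0.05, edgeR adjusted p = 0.15). HLF, the other gene of that family, was near 0.7 CPM in both groups (0.639 ± 0.0967 CPM in the SMN1-labelled and 0.694 ± 0.216 CPM in control libraries, edgeR adjusted p = 0.751). NFIL3, the D-box repressor, had 6.48, 7.24 and 9.13 CPM in the SMN1-labelled libraries, against 6.53, 6.75 and 6.65 CPM in control libraries. Its mean was raised by the third SMN1-labelled library, and it did not pass (log2 fold change 0.19, SE 0.11, edgeR adjusted p = 0.127). The NFIL3 log2 fold change was 0.05 without that library (adjusted p = 0.692). It passed as higher without the first SMN1-labelled library (0.29, adjusted p = 0.0239) and after a correction for length and GC content (0.27, adjusted p = 0.0379), within 0.0239 to 0.692 over the alternatives.

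**Figure D2:**
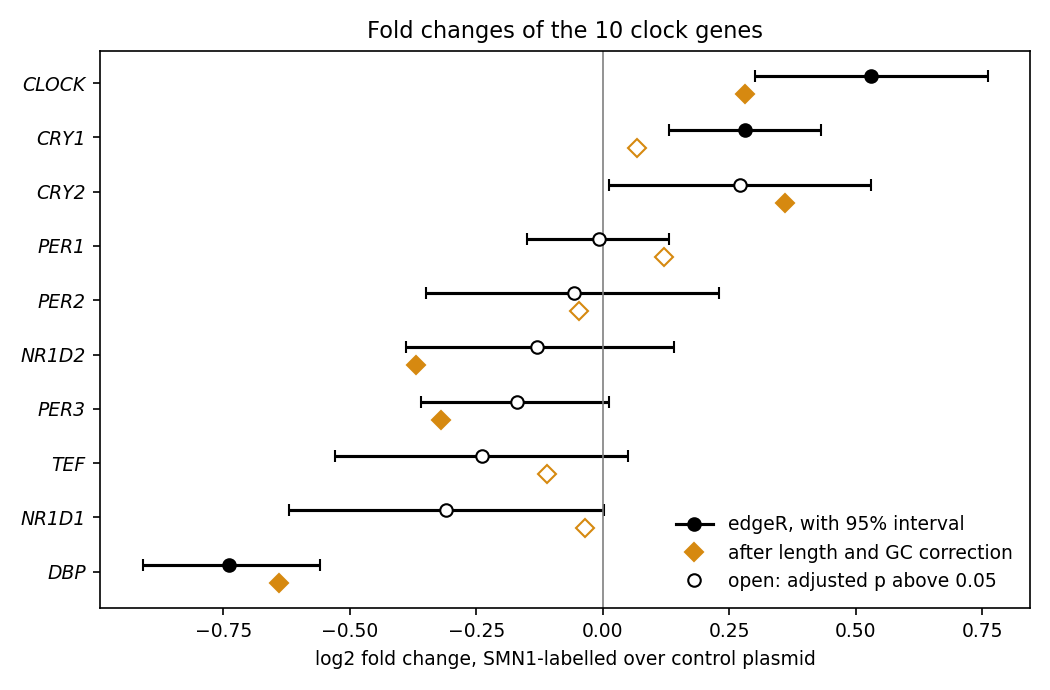
Log2 fold change of the 10 clock genes, SMN1-labelled over control plasmid libraries (x axis), from edgeR with 95% intervals (black circles) and after correction for gene length and GC content (orange diamonds), filled where the adjusted p was at most 0.05. DBP lies at -0.74 and -0.64, CLOCK at 0.53 and 0.28, and CRY1 at 0.28 without and 0.07 with the correction.

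Parts of some of these genes overlap genes on the other strand, and although the library kit keeps strand, the sources used here do not give the strand setting of the counting. In GENCODE v29 on GRCh38, DBP (minus strand of chromosome 19, 48630030 to 48637438) shares 661 exonic bases, 10.1% of its exons, with SPHK2. SPHK2 stood at 12.9 CPM in the SMN1-labelled and 13 CPM in control libraries (edgeR adjusted p = 0.914). PER3 shares 868 bases, 10.7% of its exons, with UTS2 and 482 bases with Z98884.1, and the levels of those 2 genes were not analysed here. CLOCK (minus strand of chromosome 4, 55427903 to 55547138) shares 76 bases, only 0.65% of its exons, with TMEM165, which rose (log2 fold change 0.36, edgeR adjusted p = 1.06e-06). NR1D1 shares 263 bases, 9.49% of its exons, with THRA, which did not pass (81.7 CPM in the SMN1-labelled and 78.5 CPM in control libraries, edgeR adjusted p = 0.208).

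Fold changes across all genes followed base composition and length in these libraries, and the clock genes span much of that range. Over the genes tested, which are not independent replicates, Spearman's rho of the log2 fold change was -0.43 with GC content and 0.34 with exonic length. CLOCK and CRY1, at 37.2% GC each, lay at the 5.01 and 5.18 percentile of GC content, in the decile whose median gene had a log2 fold change of 0.23. NR1D2, at 38.5% GC, lay in the same decile with a log2 fold change of -0.13. DBP, at 57.8% GC and 6544 nt, lay in a GC decile with a median of -0.15 and a length decile with a median of 0.12. With the trends on length and GC content removed within each library, 48.8% of genes were called (26.0% higher, 22.8% lower) and 5 of the 10 clock genes. DBP kept its call (log2 fold change -0.64, edgeR adjusted p = 1.17e-06), and so did CLOCK with a smaller change (0.28, adjusted p = 0.0444, the highest over its alternatives, with 7.73e-06 the lowest). CRY1 lost it (0.07, adjusted p = 0.434, within 0.000465 to 0.434). CRY2 passed as higher (0.36, adjusted p = 0.0234), and PER3 (-0.32, adjusted p = 0.00399, within 0.00399 to 0.633) and NR1D2 (-0.37, adjusted p = 0.0221, within 0.0221 to 0.902) passed as lower.

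**Figure D3:**
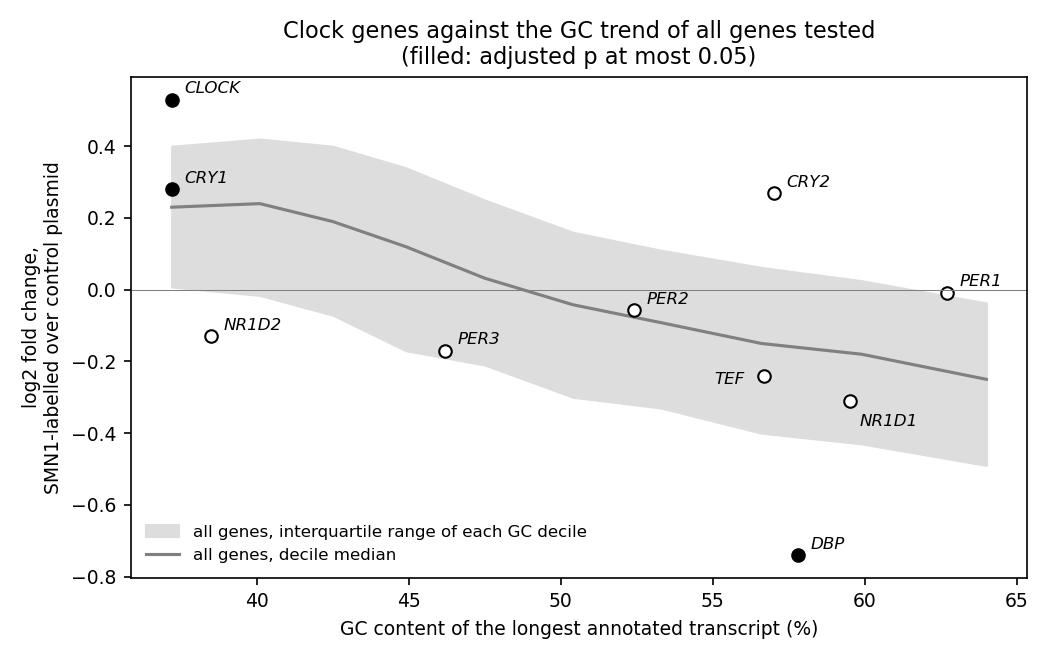
Log2 fold change of each clock gene, SMN1-labelled over control plasmid libraries (y axis), against the GC content of its longest annotated transcript (x axis), with the median (line) and the interquartile range (band) of all genes tested in each GC decile. CRY1 at 0.28 lies near the median of 0.23 of its decile, and DBP at -0.74 lies far below the median of -0.15 of its own.

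The order of the clock genes by level per length changed in a few places. On the deposited FPKM values, which are scaled by gene length, CRY1 and PER1 stood at the top in both groups and overlapped each other in each. In the SMN1-labelled libraries CRY1 averaged 2.65 ± 0.191 FPKM and PER1 2.40 ± 0.156 FPKM, and in control libraries CRY1 averaged 2.06 ± 0.0808 FPKM and PER1 2.27 ± 0.195 FPKM (SD, n = 3). DBP was at 0.88, 0.94 and 1.0 FPKM in the SMN1-labelled libraries, overlapping PER3 and CRY2, against 1.49, 1.42 and 1.52 FPKM in control libraries, where it stood clear of both its neighbours, CRY1 and PER3. CLOCK was at 0.49, 0.46 and 0.46 FPKM in the SMN1-labelled libraries, above PER2 without overlap, against 0.32, 0.27 and 0.32 FPKM in control libraries, below PER2 without overlap. PER2 itself averaged 0.350 ± 0.030 FPKM in the SMN1-labelled libraries and 0.347 ± 0.0115 FPKM in control libraries. The length that the FPKM values of DBP imply, 6884 nt, is near the joined length of all its annotated exons, so a level per length depends on that gene model.

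**Figure D4:**
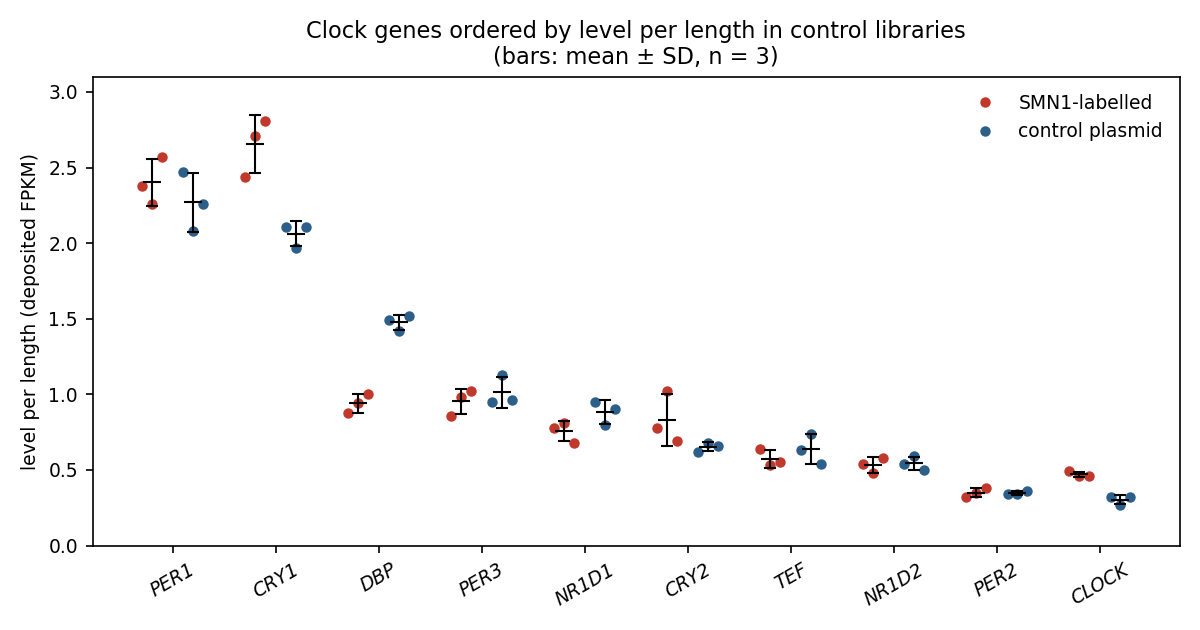
Level per length of each clock gene in deposited FPKM (y axis) in SMN1-labelled (red, left) and control plasmid (blue, right) libraries, ordered by the control mean, with bars for mean ± SD. DBP reaches at most 1.0 FPKM in the SMN1-labelled libraries and at least 1.42 FPKM in control libraries, and CLOCK and PER2 trade places at the low end.

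Ratios within a library compare genes that are paralogs or that act against each other, and do not depend on library scaling. Of 5 ratios tested, the groups did not overlap in 1, that of DBP to NFIL3, the activator and the repressor of the D-box. Its log2 value was -0.13, -0.20 and -0.45 in the SMN1-labelled libraries, against 0.69, 0.57 and 0.72 in control libraries, so that reads of DBP were fewer than those of NFIL3 in each SMN1-labelled library and more in each control library. The difference was -0.92 (exact permutation test, two-sided, p = 0.1, the smallest that 3 against 3 can give, and 0.5 with Benjamini-Hochberg adjustment over the 5 ratios). CRY1 to CRY2 differed by 0.04, less than the SD of 0.30 among SMN1-labelled libraries (exact permutation p = 1). PER1 to PER2 differed by 0.06 (exact permutation p = 0.5), NR1D1 to NR1D2 by -0.20 (p = 0.5) and RORA to NR1D1 by 0.36 (p = 0.4), all with overlapping groups. These are ratios of reads, not per length, and only their difference between groups is of use.

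**Figure D5:**
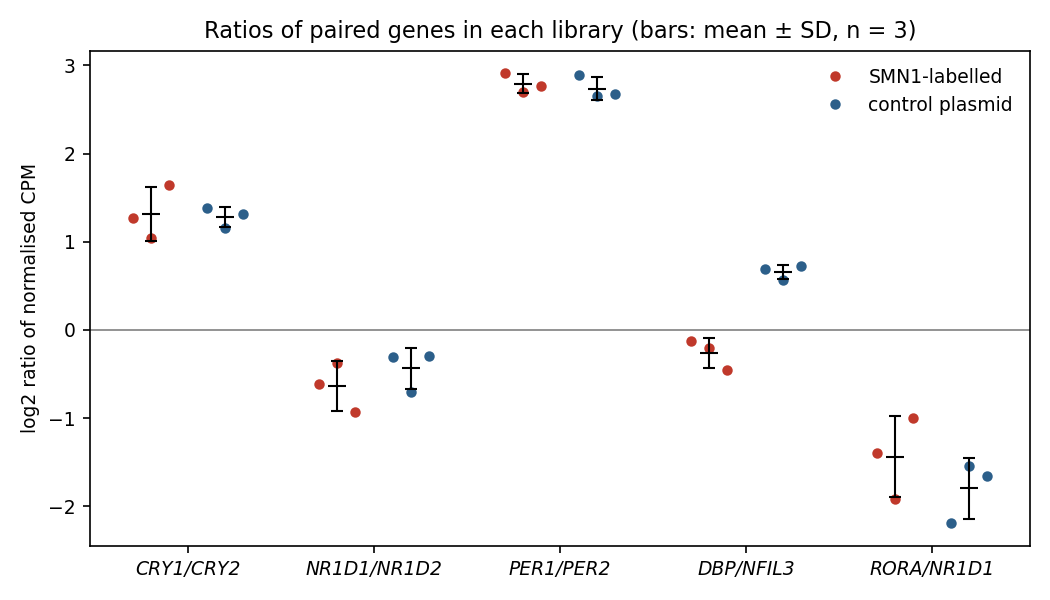
Log2 ratio of normalised CPM (y axis) for 5 gene pairs in each SMN1-labelled (red, left) and control plasmid (blue, right) library, with bars for mean ± SD. DBP to NFIL3 lies below 0 in all 3 SMN1-labelled libraries and above 0 in all 3 control libraries, and the groups overlap in the other pairs.

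Beyond the 10 genes and their partners given above, CIART, a repressor of CLOCK and BMAL1, fell: it had 0.776, 1.01 and 0.669 CPM in the SMN1-labelled libraries, against 1.43, 1.41 and 1.55 CPM in control libraries (log2 fold change -0.81, SE 0.22, edgeR adjusted p = 0.00249). BHLHE40 and BHLHE41, E-box repressors, did not pass; BHLHE40 averaged 1.40 ± 0.139 CPM in the SMN1-labelled libraries and 1.42 ± 0.127 CPM in control libraries, and BHLHE41 0.476 ± 0.0695 CPM in the SMN1-labelled and 0.727 ± 0.149 CPM in control libraries (edgeR adjusted p = 0.08, with a pass at 0.0456 when control library 2 was left out and 0.271 as the highest of its alternatives).

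Of 14 genes whose products modify clock proteins, all tested, 6 rose and 4 fell (median log2 fold change 0.09), where 28.0% of all genes tested were called higher and 28.2% lower. After the length and GC correction 7 were higher and 5 lower. BTRC, an F-box protein that marks phosphorylated PER for degradation, rose 1.41-fold to 41.0 ± 0.896 CPM in the SMN1-labelled libraries, against 29 ± 0.369 CPM in control libraries (edgeR adjusted p = 1.46e-09). CIPC, an inhibitor of CLOCK, rose 1.61-fold to 5.97 ± 0.0273 CPM in the SMN1-labelled libraries, against 3.71 ± 0.0575 CPM in control libraries (edgeR adjusted p = 4.19e-06). TIMELESS, known in mammals chiefly as a replication fork protein, fell 1.64-fold to 323 ± 4.02 CPM in the SMN1-labelled libraries, against 530 ± 3.31 CPM in control libraries (edgeR adjusted p = 1.45e-14). CSNK2B, the regulatory subunit of casein kinase II, fell 1.58-fold to 54.8 ± 1.73 CPM in the SMN1-labelled libraries, against 86.8 ± 2.49 CPM in control libraries (edgeR adjusted p = 1.81e-12).

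Of 10 clock output genes 8 were tested, of which 4 rose and 1 fell (median log2 fold change 0.21), beside the 56.2% called among all genes tested. After the length and GC correction 5 were higher and 2 lower. The peptide genes AVP and PROK2 were near 0 in both groups. KLF9, a rhythmic and glucocorticoid-induced factor, rose 1.67-fold to 4.23 ± 0.270 CPM in the SMN1-labelled libraries, against 2.53 ± 0.264 CPM in control libraries (edgeR adjusted p = 2.72e-05). PPARA, a lipid-sensing nuclear receptor, rose 1.37-fold and KLF10 1.24-fold. VIP, the coupling peptide of the suprachiasmatic nucleus, fell 1.64-fold to 2.19 ± 0.301 CPM in the SMN1-labelled libraries, against 3.62 ± 0.210 CPM in control libraries (edgeR adjusted p = 0.000117).

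Early response genes, which serum, calcium and cyclic AMP induce as they do PER1, fell together while PER1 stayed within its spread. All 10 of the 12 listed that were tested fell (median log2 fold change -0.63), and the summed FPKM of the 12 was 54.8 to 56.9 in the SMN1-labelled libraries and 112 to 117 in control libraries. Among all genes tested 28.2% were called lower. After the length and GC correction 9 of the 10 were lower (median -0.40), and NR4A1 was not called (edgeR adjusted p = 0.158). FOS averaged 4.85 ± 0.290 CPM in the SMN1-labelled libraries and 51.2 ± 0.676 CPM in control libraries, and EGR1 43.2 ± 1.26 CPM in the SMN1-labelled and 141 ± 0.923 CPM in control libraries, with FOSB and ATF3 12.6- and 1.90-fold lower. PER1 stood at 17.3 ± 1.07 CPM in the SMN1-labelled and 17.4 ± 1.50 CPM in control libraries. The part of the early response difference in the values of DBP, CLOCK and CRY1 was not tested.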

How the data were processed

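RNA was sequenced from 6 SH-SY5Y libraries as paired 150 nt reads after a stranded mRNA kit, per the labels' protocols. The submitters' processing notes name GRCh38, HISAT2 and DESeq2, while the counter, the annotation and the strand setting were not stated in what was used here. One deposited table gives unnormalised read counts of 28862 genes. The other gives FPKM values of 28501 genes, which the authors scaled by length and depth and rounded to 2 decimals. Columns were matched to samples by name.

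Counts were tested with edgeR 4.0.16 in R 4.3.3 (TMM, default filterByExpr, quasi-likelihood test with group as the only term, two-sided, Benjamini-Hochberg over 15829 genes, threshold 0.05). SEs were derived from the F statistic. Alternatives used DESeq2 1.42.0, limma 3.58.1 (voom, and FPKM on a log2 scale with a pseudocount of 0.1 or 1 where 3 libraries reach 0.5 FPKM, which understates changes of low genes), other factors and filters, a replicate term, each library left out, and spline correction (5 df) for merged exonic length and the GC content of the longest transcript from GENCODE v29 (15663 genes). The edgeR test and the length and GC correction were tested on simulated counts. Far fewer genes were changed there than were called in these data, and the planted trend was on length only. The simulation therefore does not cover changes as wide as those seen here. No pair of replicate libraries was as alike as counting noise allows (chi-square over its degrees of freedom 2.41 to 4.12). The members and gene lists were chosen with earlier results of these data known. Named are all 10 genes, SMN1, SMN2, further genes of the loop and the D-box family, of which 1 is not reported here, and up to 4 called genes of each other list by size of change; the overlapping genes, TH, TWIST1, NR4A1, AVP and PROK2 were named after their values were seen.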

Additional observations from a re-analysis of the deposited data

How the results depend on the processing

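The count of clock genes called higher was 2 and of those called lower 1. On log2(FPKM + 0.1) and log2(FPKM + 1) the count higher was 1, since the FPKM filter removed CLOCK. It also removed PER2, which was not called on counts. With no filter on low counts 3 were higher, CRY2 among them (log2 fold change 0.3, edgeR adjusted p = 0.0269). After the length and GC correction 3 were lower. Leaving out 1 library gave 2 to 3 higher and 1 lower. On FPKM 62.6% of all calls were higher, against 49.8% on counts. The replicate numbers did not pair the libraries (correlations of same-numbered deviations 0.003 to 0.013), and not every library correlated best with its own number. With the replicate block 2 clock genes were higher and 1 lower, and 4326 and 4382 of all genes, against 4426 and 4466 without it.

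SMN2 lost its call with unfiltered log2(FPKM + 1) values (-0.16, adjusted p = 0.0546 by limma, the highest over its alternatives, with 0.000369 the lowest). The fitted sign turned only in genes and ratios that had not passed, and the cause was not tested. PER1 was at 0.0038 with DESeq2, 0.12 after the length and GC correction, 0.08 on log2(FPKM + 0.1), 0.058 on log2(FPKM + 1) with and without the filter, 0.013 without a count filter and -0.072 to 0.052 with 1 library left out. After the length and GC correction BMAL1 was at -0.13, NPAS2 at -0.0058, RORA at -0.20 and BHLHE40 at 0.085. On log2(FPKM + 1) without a filter PER2 was at 0.0034, HLF at 0.00028 and BHLHE40 at 0.017, and BHLHE40 was at 0.00089 without a count filter. With 1 library left out the ranges were -0.10 to 0.24 for NPAS2, -0.11 to 0.22 for RORA, -0.33 to 0.10 for HLF and -0.081 to 0.05 for BHLHE40. They were -0.13 to 0.18 for the CRY1 to CRY2 ratio and -0.0016 to 0.13 for the PER1 to PER2 ratio. Depth limits NR1D1, RORA, RORB, NPAS2, HLF, BHLHE40, BHLHE41 and CIART, each with under 100 reads in every library.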
